A study of Mus musculus with 6 samples.

Results

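The 10 genes described here, Msx1, Msx2, Msx3, Wnt1, Wnt3a, Pax3, Pax7, Zic1, Zic2 and Olig3, are a fixed list of genes that pattern the dorsal neural tube, taken by symbol from the 55400 genes of the table. All 10 were found, each as 1 Ensembl gene, and all 10 had reads in every library. Their messenger RNA was measured in mouse cells that had been steered to the opposite, ventral side. C57BL/6 mouse embryonic stem cells were grown as embryoid bodies and given 1 µM retinoic acid, a caudalising signal for neural cells, and 0.5 µM SAG, a small molecule that switches on Sonic hedgehog signalling, from day 2. On day 4 they were harvested as motor neuron progenitors. The 3 libraries labelled Setd5sh and the 3 labelled control share this protocol and a wild-type genotype label, and both received doxycycline (1 µg/mL, 36 h). Setd5 encodes a SET domain protein, and the labels leave the name Setd5sh unexplained. The sources used here do not give what the control cells carried or whether the line is 1 clone. Nothing in the labels states that replicates are separate cultures. All p-values therefore rest on the spread between these libraries alone, which may be technical.

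In the embryo the dorsal neural tube is patterned by the roof plate, a strip of cells at the dorsal midline that secretes BMP and Wnt proteins. These signals switch on homeobox, paired box, zinc finger and basic helix-loop-helix genes in nested dorsal domains, from which sensory interneurons and neural crest cells arise. Sonic hedgehog from the ventral side keeps many of these genes off.

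Setd5sh libraries held 19639303 to 27660851 counted reads and control libraries 19871993 to 32046466. Setd5 itself stood at 14.4, 13.5 and 12.9 FPKM in Setd5sh libraries, against 22.2, 18.8 and 16.7 FPKM in control libraries, where FPKM is the read count per exonic length and per library total. Every Setd5sh library was below every control library. The log2 difference of -0.51 (SE 0.16) did not pass in edgeR, at an adjusted p of 0.995 and an unadjusted p of 0.0143. Setd5 was highest in control replicate 1, and dropping that library shrank the difference to -0.36 (SE 0.13). Dropping any other single library gave values between -0.60 and -0.47. Control replicate 1 stood apart, with correlations of log2 level of 0.948 to 0.96 with the 3 Setd5sh libraries. Between a Setd5sh and a control library the correlation was highest, at 0.996, for both replicates 2. Markers of ventral progenitors were abundant. Olig2, which marks motor neuron progenitors, averaged 93.7 ± 20.4 FPKM in Setd5sh cells and 73.6 ± 7.04 FPKM in control cells, and Sox1, a general neural progenitor gene, averaged 24.7 ± 3.52 FPKM in Setd5sh cells and 27.7 ± 0.319 FPKM in control cells (SD, n = 3 each). Of 6 neural progenitor markers all were tested, 0 passed, 3 had a positive and 3 a negative log2 fold change, and the median was 0.10. Hes5 had 0.53 (SE 0.25), Nes 0.44 (SE 0.22), Sox3 0.22 (SE 0.19) and Sox1 -0.17 (SE 0.15).

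Of the 10 dorsal genes, 3 had a mean of at least 1 FPKM over the 6 libraries, namely Zic2, Msx1 and Wnt1, and 7 were under it. Msx1 and Wnt1 stood higher in every Setd5sh library than in every control library, as did 2.63% of the 12199 genes with such a mean, and their fitted differences were 2.21-fold and 1.79-fold. The Zic2 values, the highest of the 10 per exonic length, overlapped between groups. None of the 3 passed the adjusted threshold of 0.05 in edgeR over these 12199 genes, of which 0, or 0.0%, passed. DESeq2 and limma on the same genes also called 0, and 149 genes, or 1.22%, had an unadjusted edgeR p under 0.05, 2 of the 3 dorsal genes among them. With no true difference, a share of 0.05 of the genes would fall under it on average, more than the 1.22% seen. With 1 library left out the number ran from 25, without Setd5sh replicate 1, to 989, without control replicate 3.

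**Figure D1:**
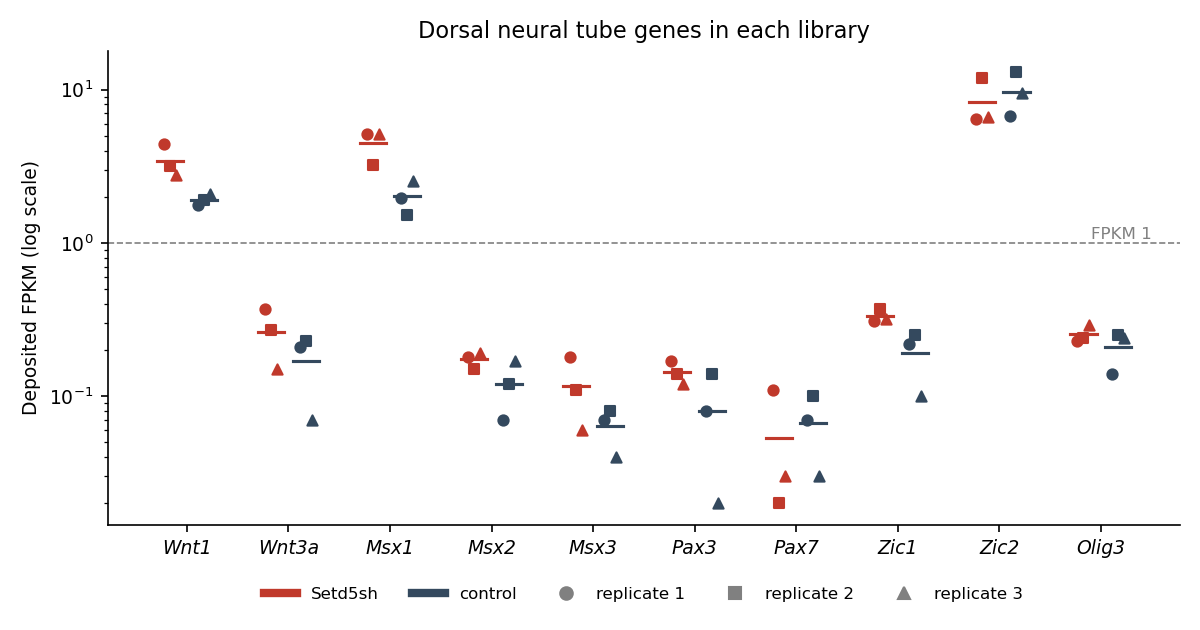
Deposited FPKM of each dorsal gene on a log axis, 1 point for each library, with Setd5sh in red and control in dark blue a bar at each group mean, and circles, squares and triangles for replicates 1, 2 and 3. Zic2, Msx1 and Wnt1 lie above the dashed line at 1 FPKM in all 6 libraries, and the other 7 genes lie between 0.02 and 0.37 FPKM.

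Wnt1 encodes a secreted ligand that the roof plate makes and that drives growth and dorsal identity of neighbouring progenitors through beta-catenin. It (ENSMUSG00000022997) lies on chromosome 15, from 98789857 to 98793837 (mm10, plus strand). Wnt1 and Msx1 were the members above 1 FPKM whose groups did not overlap, so the 300 bases around their annotated start sites are shown, from 250 before to 50 after, as RefSeq gives them on GRCm38.p6. Capitals mark matches, on either strand, to any of 9 short motifs. CTTTGA is a motif of the TCF/LEF factors of the Wnt pathway, as is the variant CTTTGT. Smads, the effectors of BMP signals, have GGCGCC as a motif besides the shorter box CAGAC. Gli factors, the effectors of Sonic hedgehog, have GACCACCCA, and retinoic acid receptors a direct repeat. The core promoter boxes searched were the CCAAT box, the TATA box with the letters TATAAA and the GC box with the letters GGGCGG.
Wnt1, chr15:98789607-98789906, plus strand: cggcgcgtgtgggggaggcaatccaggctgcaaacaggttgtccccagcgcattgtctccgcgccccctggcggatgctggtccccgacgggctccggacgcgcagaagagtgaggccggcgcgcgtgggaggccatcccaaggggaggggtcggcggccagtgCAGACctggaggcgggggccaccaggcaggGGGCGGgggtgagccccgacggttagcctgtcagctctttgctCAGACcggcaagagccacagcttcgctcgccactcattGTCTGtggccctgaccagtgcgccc
Msx1, chr5:37824536-37824835, minus strand: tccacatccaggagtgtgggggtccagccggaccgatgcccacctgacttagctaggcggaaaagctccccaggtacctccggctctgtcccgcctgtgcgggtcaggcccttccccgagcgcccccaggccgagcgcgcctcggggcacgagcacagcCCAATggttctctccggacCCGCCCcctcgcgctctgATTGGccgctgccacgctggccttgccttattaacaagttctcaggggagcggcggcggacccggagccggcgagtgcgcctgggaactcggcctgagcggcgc

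The Wnt1 window holds CAGAC at 3 places and GGGCGG once, and the Msx1 window holds CCAAT at 2 places and GGGCGG once. CAGAC occurs in 49.6% of the 32851 RefSeq windows of this length, CCAAT in 37.4% and GGGCGG in 35.7%, so these matches are common. Windows were found for 8 of the 10 genes, all but Pax3 and Zic2. Neither TCF/LEF motif, which 16.0% and 18.7% of all windows hold, was in any of the 8, nor were the Gli or retinoic acid receptor motifs, which 0.253% and 0.00913% of all windows hold. Of the 8 windows, 7 hold the GC box, 5 hold the CCAAT box and 3 hold the shorter Smad box. GGCGCC was in 2 of the 8, those of Wnt3a and Zic1, against 11.9% of all windows, and TATAAA was in 2 of the 8, against 13.6%. A match describes these letters and does not show binding.

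Wnt1 stood at 4.40, 3.15 and 2.76 FPKM in Setd5sh replicates 1, 2 and 3, against 1.77, 1.90 and 2.07 FPKM in control replicates 1, 2 and 3. The 3 Setd5sh libraries all lie above the 3 control libraries, and Setd5sh replicate 1 lies well above the other two. The means were 3.44 ± 0.857 FPKM in Setd5sh cells and 1.91 ± 0.15 FPKM in control cells (SD, n = 3 each), from 553 reads in Setd5sh and 356 in control. On the log2 scale the difference was 0.84 (SE 0.27, 95% interval 0.22 to 1.46), and edgeR gave an adjusted p of 0.995 and an unadjusted p of 0.0146. The exact permutation p (two-sided) was 0.1, and 3 against 3 libraries cannot give a smaller one. Wnt3a, a second Wnt ligand of the dorsal midline, was under 1 FPKM, with 21, 21 and 8 reads in Setd5sh libraries and 19, 17 and 4 reads in control libraries. Its groups overlap, at 0.263 ± 0.11 FPKM in Setd5sh cells and 0.17 ± 0.0872 FPKM in control cells. Control replicate 3 has the lowest Wnt3a level, at 0.07 FPKM.

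Msx1, Msx2 and Msx3 encode related homeodomain repressors that BMP signals switch on in the roof plate and the most dorsal progenitors. Msx1 (ENSMUSG00000048450) lies on chromosome 5, from 37820485 to 37824583 on the minus strand. It stood at 5.13, 3.21 and 5.10 FPKM in Setd5sh replicates 1, 2 and 3, against 1.95, 1.52 and 2.55 FPKM in control replicates 1, 2 and 3. Every Setd5sh library lies above every control library, and replicate 2 is the lowest in both groups. The means were 4.48 ± 1.10 FPKM in Setd5sh cells and 2.01 ± 0.517 FPKM in control cells (SD, n = 3 each), from 914 reads in Setd5sh and 479 in control. On the log2 scale the difference was 1.15 (SE 0.30, 95% interval 0.45 to 1.84), and edgeR gave an adjusted p of 0.995. Its unadjusted p of 0.00538 was the 4th smallest of the 12199 genes. The exact permutation p was again 0.1. Among the same genes, 23, or 0.189%, had a mean at least 2-fold higher in Setd5sh, Msx1 among them.

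Msx1 passed the threshold in 1 setting of the filter. When every gene with at least 1 read was kept, 29462 genes, edgeR put it at 1.21 (SE 0.31) on the log2 scale with an adjusted p of 0.0396, as 1 of 18 genes, or 0.0611%, called higher; 55 genes, or 0.187%, were called lower. In that fit edgeR pooled the extra spread over all genes, at 118000 total degrees of freedom, whereas the fit above the minimum left each gene 7.83. DESeq2 on the same 29462 genes gave Msx1 an adjusted p of 0.998 and limma on log2(FPKM + 1) one of 0.924. The call was also lost in that edgeR fit without Setd5sh replicate 1, Setd5sh replicate 3 or control replicate 2, at adjusted p of 0.999, 0.433 and 0.38, and without TMM scaling, at 0.089. Wnt1 and the other 8 genes did not pass in the edgeR fit without a filter.

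The paralogs had few reads. Msx2 had 12, 14 and 12 reads in Setd5sh libraries and 7, 11 and 11 reads in control libraries, or 0.173 ± 0.0208 FPKM in Setd5sh cells and 0.12 ± 0.05 FPKM in control cells. Msx3, which in mouse marks the dorsal neural tube, had 9, 7 and 3 reads in Setd5sh libraries and 5, 5 and 2 reads in control libraries. Both sets of values overlap between groups. Within the family, per exon length, Msx1 was therefore the abundant member in both groups.

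Pax3 and Pax7 encode paired box factors of the dorsal progenitor domain and the neural crest. Pax3 had 22, 24 and 14 reads in Setd5sh libraries and 15, 24 and 2 reads in control libraries, or 0.143 ± 0.0252 FPKM in Setd5sh cells and 0.08 ± 0.06 FPKM in control cells. The libraries numbered 2 stand level, at 0.14 FPKM in each group, and control replicate 3 is the lowest. Pax7 had 13, 3 and 3 reads in Setd5sh libraries and 13, 16 and 3 reads in control libraries, or 0.0533 ± 0.0493 FPKM in Setd5sh cells and 0.0667 ± 0.0351 FPKM in control cells. Per exonic length it was the lowest of the 10 genes, although Msx3 had fewer reads, and it was, with Zic2, 1 of 2 whose mean was lower in Setd5sh. Both genes overlap between groups.

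Zic1 and Zic2 encode zinc finger factors of the dorsal neural tube, which help keep progenitors dividing. Zic1 was under 1 FPKM, with 36, 58 and 36 reads in Setd5sh libraries and 40, 38 and 11 reads in control libraries. At this depth that is 0.31, 0.37 and 0.32 FPKM in Setd5sh replicates 1, 2 and 3, against 0.22, 0.25 and 0.10 FPKM in control replicates 1, 2 and 3. It is the third gene with every Setd5sh library above every control library, as in 1.65% of the 4911 genes in the range of mean FPKM of the 7 low genes. Fitted without a filter its log2 difference was 0.88 (SE 0.49, 95% interval -0.09 to 1.84), at an adjusted p of 0.888 in edgeR. Zic1 shares 60 of its 5693 exonic bases with Zic4 on the opposite strand, and Zic4 had 20 reads over all 6 libraries. The sources used here do not state whether reads were counted by strand, so reads of both genes in the shared bases cannot be told apart.

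Zic2 (ENSMUSG00000061524, chromosome 14, 122475435 to 122479852, plus strand) stood at 6.40, 11.9 and 6.67 FPKM in Setd5sh replicates 1, 2 and 3, against 6.70, 13.0 and 9.44 FPKM in control replicates 1, 2 and 3. The groups overlap, and replicate 2 is the highest library in each. The means were 8.33 ± 3.12 FPKM in Setd5sh cells and 9.71 ± 3.15 FPKM in control cells (SD, n = 3 each), and the log2 difference was -0.22 (SE 0.31, 95% interval -0.93 to 0.49), for which edgeR gave an adjusted p of 0.995. The exact permutation p was 0.5. Without control replicate 2 the log2 fold change was 0.01, and without Setd5sh replicate 2 it was -0.54. Of 6 pluripotent cell markers, 2 tested with 0 passing, 5 were also highest in replicate 2 of both groups. So were 6 of 10 roof plate genes and signals, 5 of 8 non-neural ectoderm markers and 4 of 8 feeder fibroblast markers. Of 6 endoderm markers 3 were, of 6 early mesoderm markers 2 and of 6 intermediate genes 2. The count was 3 of 15 for canonical Wnt genes and 2 of 10 for neural crest genes. It was 1 in each of the BMP target, neural progenitor, other dorsal progenitor and dorsal interneuron lists. Of 8 ventral progenitor genes 0 were, and of 8 BMP receptor and Smad genes 0. The share over all genes was not counted. Deviations of both replicates 2 from the group means correlated at 0.744 in TMM-scaled log2 counts. The summed level of the pluripotent markers was 2.21, 10.4 and 1.17 FPKM in Setd5sh replicates 1, 2 and 3, against 4.29, 13.9 and 3.49 FPKM in control replicates 1, 2 and 3, and none of these 6 was at 0 counts. The part of any of these genes' cells in the Zic2 levels was not tested. In bulk RNA, fewer cells of a type and less RNA per cell cannot be told apart.

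Olig3 encodes a basic helix-loop-helix factor of the dorsal-most interneuron progenitors. It had 10, 14 and 12 reads in Setd5sh libraries and 9, 14 and 10 reads in control libraries, or 0.253 ± 0.0321 FPKM in Setd5sh cells and 0.21 ± 0.0608 FPKM in control cells. The groups overlap. Its relative Olig2, the ventral gene that marks the motor neuron domain, stood far above it in the same libraries, as given above.

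**Figure D2:**
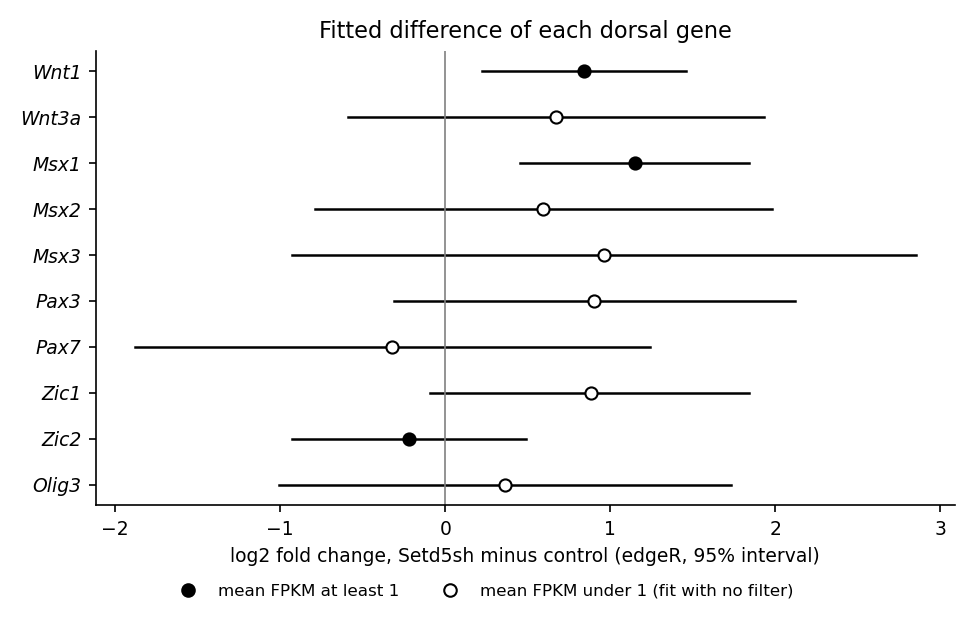
Fitted log2 fold change, Setd5sh minus control, of each dorsal gene with its 95% interval, from edgeR. Filled points are genes with a mean of at least 1 FPKM and open points are genes under it, fitted with no filter; only the intervals of Wnt1 and Msx1 do not cross 0.

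Over the 10 genes, 8 had a higher mean in Setd5sh, in TMM-scaled counts, against 35.7% of the 29462 genes with a count. The share was 42.6% of the 12199 genes with a mean of at least 1 FPKM. Control replicate 1 had a count for 26505 genes, more than any other library. The 10 genes were chosen with earlier results of these data known, so the shares in this paragraph are a description and no test. Of the 7 under 1 FPKM, 6 had a higher mean, against 30.9% of the 4911 genes in the same range of mean FPKM. The median log2 ratio of the group means was 0.71 over the 10, against -0.11 over the 24376 genes with reads in both groups. Non-overlapping groups with Setd5sh higher were seen for 3 of the 10, Msx1, Wnt1 and Zic1, against 1.83% of the 29462 genes. The 7 genes under 1 FPKM together had 123, 141 and 88 reads in Setd5sh libraries, against 108, 125 and 43 reads in control libraries. Summed, their level was 1.55, 1.30 and 1.16 FPKM in Setd5sh replicates 1, 2 and 3, against 0.86, 1.17 and 0.67 FPKM in control replicates 1, 2 and 3, so that Setd5sh replicate 3 and control replicate 2 overlap. Their log2 fold changes, fitted without a filter, were -0.32 for Pax7, 0.36 for Olig3, 0.59 for Msx2, 0.67 for Wnt3a, 0.88 for Zic1, 0.90 for Pax3 and 0.96 for Msx3, and none passed in edgeR. With 1 library left out they ran between 0.10 and 0.50 for Olig3 (lowest without control replicate 1), 0.28 and 0.94 for Msx2 (lowest without control replicate 1), and 0.33 and 0.93 for Wnt3a (lowest without Setd5sh replicate 1). The ranges were 0.59 to 1.10 for Zic1 and 0.47 to 1.61 for Pax3, both lowest without control replicate 3, 0.49 to 1.23 for Msx3 (lowest without Setd5sh replicate 1) and -1.51 to 0.12 for Pax7. These counts are small: for the 7, the fitted standard errors on the log2 scale ran from 0.49 for Zic1 to 0.97 for Msx3, and a 2-fold difference lies within the 95% interval of every one.

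**Figure D3:**
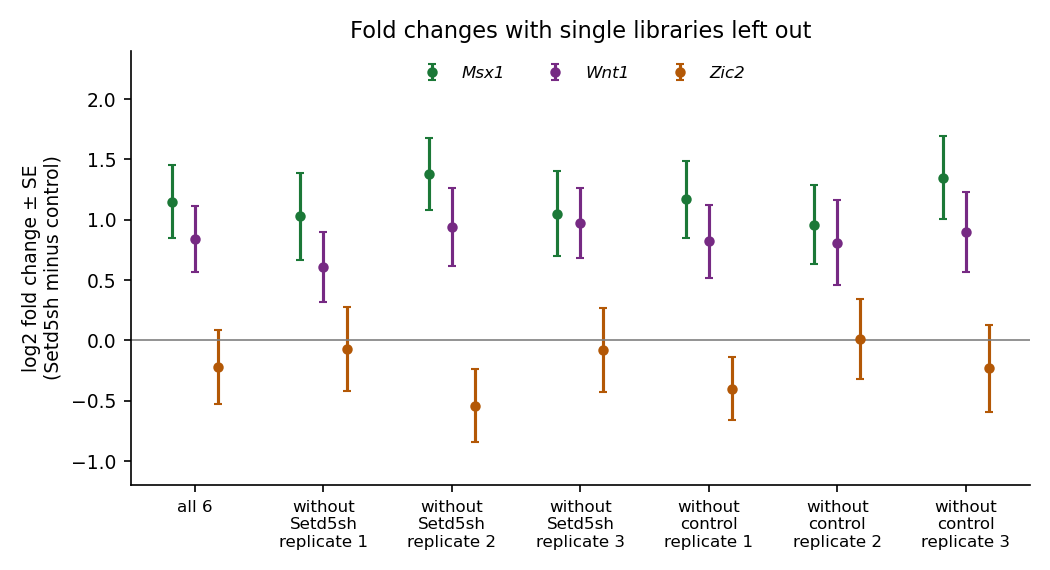
Log2 fold change, Setd5sh minus control, with its SE for Msx1, Wnt1 and Zic2, fitted on all 6 libraries and with each library left out. Msx1 stays between 0.96 and 1.38 and Wnt1 between 0.61 and 0.97, while Zic2 moves between -0.54 and 0.01.

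Leaving out single libraries moved Msx1 between 0.96, without control replicate 2, and 1.38, without Setd5sh replicate 2. Wnt1 was lowest, at 0.61, without Setd5sh replicate 1, its highest library, and highest, at 0.97, without Setd5sh replicate 3. Without control replicate 1, the library that stands apart, Msx1 was at 1.17, Wnt1 at 0.82 and Zic2 at -0.40. None of these edgeR fits called any of the 3 genes, with the adjusted p of Msx1 between 0.56, without control replicate 3, and 1.0, without Setd5sh replicate 1.

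By Pearson correlation of log2(FPKM + 1) over the 6 libraries, the genes most like Msx1 among the 12199 were Dclre1b, at 0.998, and Mycl, at 0.997. Mycl, a Myc family transcription factor, stood at 30.3, 26.9 and 30.2 FPKM in Setd5sh libraries, against 24.7, 23.99 and 26.1 FPKM in control libraries. Wnt1 was most like Pdcd11, at 0.992, and Ifitm1, at 0.984. Ifitm1 averaged 6.92 FPKM in Setd5sh cells and 4.94 FPKM in control cells. Zic2 was most like Pde4a, at 0.999, and Rarg, a retinoic acid receptor gene, at 0.998. Rarg stood at 4.30, 9.54 and 4.42 FPKM in Setd5sh libraries, against 4.64, 11.02 and 7.57 FPKM in control libraries, and was highest in replicate 2 of each group. All these values are from the same 6 libraries and are given as a description.

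Other genes of the dorsal tube were grouped by role. Of 10 roof plate genes and signals, 4 were tested and 0 passed, 2 with a positive and 2 with a negative log2 fold change and a median of -0.25, against -0.04 over all 12199 genes. Bmp4, a roof plate ligand, stood at 1.11 ± 0.0346 FPKM in Setd5sh cells and 0.95 ± 0.115 FPKM in control cells, with 0.21 (SE 0.28) as log2 fold change, and Bmp7 at 12.4 ± 1.95 FPKM in Setd5sh cells and 12.3 ± 2.28 FPKM in control cells. For Lmx1b the log2 fold change was -0.50 (SE 0.33) and for Rspo1 -0.50 (SE 0.52), and both were highest in the libraries numbered 2. Rspo1 ran between -1.17, without Setd5sh replicate 2, and -0.14, without control replicate 2. Lmx1a, which specifies the roof plate, had 0 reads in Setd5sh and 6 in control, and Gdf7, a roof plate BMP ligand, had 21 reads in Setd5sh and 23 in control.

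Of 11 further dorsal progenitor genes, 5 were tested and 0 passed, 4 with a positive log2 fold change and a median of 0.13. Neurog1, a proneural gene of an intermediate dorsal domain that is also active elsewhere in the neural tube, stood at 18.8, 13.6 and 15.8 FPKM in Setd5sh libraries, against 9.55, 9.44 and 10.5 FPKM in control libraries. Every Setd5sh library lies above every control library, as in 2.63% of the 12199 genes, and edgeR put its log2 difference at 0.70 (SE 0.19), at an unadjusted edgeR p of 0.0067. Gli3, a Sonic hedgehog mediator that acts mainly as a repressor, had 0.13 (SE 0.17) and Zic5 -0.49 (SE 0.29) on the same scale. Some genes of this list, picked after their values were seen, were almost absent. Atoh1 had 0 reads in Setd5sh and 2 in control, and Ptf1a 0 in Setd5sh and 2 in control. Gsx2 had 0 reads in Setd5sh and 1 in control, while Gsx1 had none in any library.

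Of 12 genes of dorsal interneurons, only Lhx1, which ventral interneurons also use, was tested, with a log2 fold change of 0.10 (SE 0.30). The other 11 were under 1 FPKM; the highest were Pax2, at 0.683 ± 0.29 FPKM in Setd5sh cells and 0.55 ± 0.256 FPKM in control cells, and Pou4f1, at 0.387 ± 0.0611 FPKM in Setd5sh cells and 0.37 ± 0.139 FPKM in control cells. Of 10 neural crest genes 4 were tested and 0 passed, with a median of -0.05. Ednrb, which encodes an endothelin receptor, stood at -0.70 (SE 0.29, unadjusted edgeR p of 0.0431), which was -0.25 without control replicate 1. Twist1 had 0.42 (SE 0.30), Ets1 0.06 (SE 0.20) and Sox9 -0.15 (SE 0.21). Sox10, which defines migrating crest, had 15 reads in Setd5sh and 6 in control.

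**Figure D4:**
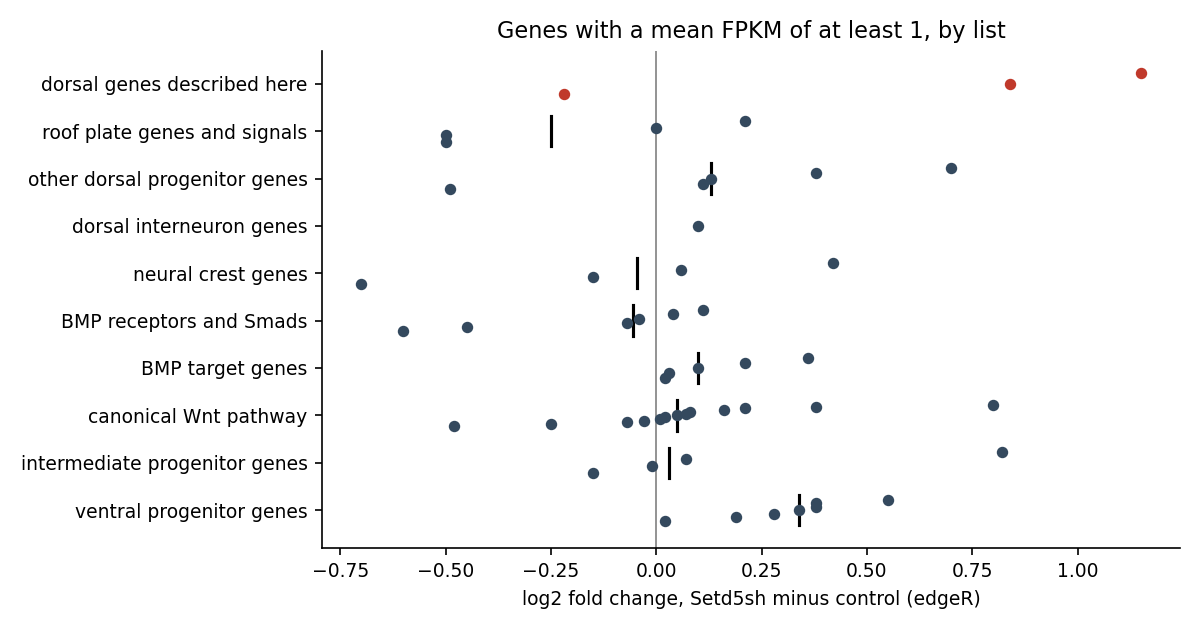
Log2 fold change, Setd5sh minus control, of the genes with a mean of at least 1 FPKM in each list, 1 point for each gene, with a black bar at the median of lists other than the dorsal genes described here. Msx1 lies farthest to the right, and the ventral list, like the Wnt and dorsal progenitor lists, holds genes on the right.

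The pathways that act on these genes were compared in the same fit. Of 8 BMP receptor and Smad genes 6 were tested and 0 passed, with a median of -0.06. The receptor genes Bmpr2, at -0.60 (SE 0.36), and Bmpr1a, at -0.45 (SE 0.32), were at -0.05 and 0.03 without control replicate 1. Of 7 BMP target genes 5 were tested and 0 passed, all 5 with a positive log2 fold change and a median of 0.10. A higher Setd5sh mean was seen in 42.6% of the 12199 genes. Id1, at 0.21 (SE 0.26), Smad6, at 0.10 (SE 0.26), and Id2, at 0.03 (SE 0.22), were at -0.03, -0.09 and -0.12 without control replicate 1. Id3, a direct BMP target, stood at 173, 176 and 159.95 FPKM in Setd5sh libraries, against 79.4, 138 and 179.8 FPKM in control libraries, with a log2 fold change of 0.36 (SE 0.26), which was 0.12 at its lowest with a library left out. Control replicate 1 has the lowest Id3, and the other values overlap.

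Of 15 canonical Wnt genes 13 were tested and 0 passed, 9 with a positive log2 fold change and a median of 0.05. Sp5, a direct target of beta-catenin, stood at 7.37, 5.15 and 5.89 FPKM in Setd5sh libraries, against 3.27, 3.88 and 3.38 FPKM in control libraries. Every Sp5 value in Setd5sh lies above every control value, as in 2.63% of the 12199 genes. Its log2 difference was 0.80 (SE 0.23), at an unadjusted edgeR p of 0.00765. Nkd1, a feedback inhibitor of the pathway whose groups also did not overlap, had 0.38 (SE 0.21) and Sp8 0.21 (SE 0.21). The receptor gene Fzd3 had -0.48 (SE 0.47), which was 0.35 with control replicate 1 left out.

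Of 8 ventral progenitor genes 7 were tested and 0 passed, all 7 with a positive log2 fold change and a median of 0.34. Over the 12199 genes, 42.6% had a higher mean in Setd5sh. Olig1 had 0.55 (SE 0.21, unadjusted edgeR p of 0.0329), Nkx6-1 0.38 (SE 0.21), Olig2 0.34 (SE 0.20) and Nkx2-9 0.28 (SE 0.15). The summed ventral level was 478, 396 and 416 FPKM in Setd5sh libraries, against 324, 332 and 398 FPKM in control libraries, so that Setd5sh replicate 2 and control replicate 3 overlap. Of 6 genes of intermediate domains 4 were tested and 0 passed, with a median of 0.03. Dbx1, which marks progenitors at the dorsoventral midpoint, stood at 10.2, 5.52 and 5.97 FPKM in Setd5sh libraries, against 5.48, 3.61 and 3.08 FPKM in control libraries, at a log2 difference of 0.82 (SE 0.34), while Irx3 and Pax6 had 0.07 (SE 0.21) and -0.01 (SE 0.19).

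Msx1, Wnt1 and Zic1 are also active outside the neural tube, so markers of other cells are given beside them. The 8 non-neural ectoderm markers summed to 139 to 209 FPKM in Setd5sh cells and 89.3 to 209 FPKM in control cells. Most of this was Krt18, Krt8 and Epcam, the 3 tested, at means of 85.6, 56.0 and 29.0 FPKM in Setd5sh cells. In control cells they averaged 74.2, 39.9 and 38.5 FPKM. The log2 fold change was 0.49 (SE 0.28) for Krt8, 0.21 (SE 0.29) for Krt18 and -0.41 (SE 0.40) for Epcam. Without control replicate 1 Krt8 was at 0.23 and Krt18 at -0.06, and without control replicate 2 Epcam was at -0.01. Gata3, under the minimum, averaged 1.18 ± 0.461 FPKM in Setd5sh cells and 0.657 ± 0.0473 FPKM in control cells. It stood at 1.07, 0.79 and 1.69 FPKM in Setd5sh libraries, against 0.64, 0.62 and 0.71 FPKM in control libraries. The Gata3 groups thus did not overlap, with Setd5sh higher, as in 1.83% of the 29462 genes with a count. The 8 feeder fibroblast markers summed to 7.12 to 9.24 FPKM in Setd5sh cells and 5.32 to 8.50 FPKM in control cells, with Col1a2 at 0.35 (SE 0.29) and Col1a1 at -0.37 (SE 0.51), which were 0.10 without Setd5sh replicate 3 and 0.04 without control replicate 2. Neither list had a gene that passed, nor did the mesoderm and endoderm lists. The 6 early mesoderm markers summed to 4.15 to 8.40 FPKM in Setd5sh cells and 5.13 to 10.4 FPKM in control cells, with Msgn1 at 0 counts. The 6 endoderm markers summed to 50.9 to 74.3 FPKM in Setd5sh cells and 36.6 to 75.5 FPKM in control cells. Most of that sum was Cldn6, at 46.0, 68.5 and 45.4 FPKM in Setd5sh libraries, against 31.4, 69.7 and 52.9 FPKM in control libraries. Gata6 averaged 1.40 FPKM in Setd5sh cells and 1.43 FPKM in control cells. The 10 neural crest genes summed to 22.2 to 25.9 FPKM in Setd5sh cells and 28.6 to 39.3 FPKM in control cells, a gap that rested on Ednrb. The other 9 summed to 9.82, 13.7 and 12.6 FPKM in Setd5sh libraries, against 9.65, 13.3 and 14.0 FPKM in control libraries. With Ednrb left out, these sums all overlap between groups, and the part of these cells in the Msx1, Wnt1 and Zic1 levels was not tested.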

How the data were processed

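Libraries of polyadenylated RNA from 3 Setd5sh and 3 control samples were grouped and numbered by their titles. The authors deposited 1 table of 55400 Ensembl genes with a raw read count, an FPKM value and the exonic length; the deposited FPKM equals count, length and column total put together, to within 0.005. HTSeq, HISAT2, DESeq2, SAMtools and the mm10 build appear in the submitters' processing notes, without roles; annotation and strand setting were not stated there. Symbols and positions came from GENCODE M21 (99.5% of identifiers), whose exonic lengths equal those in the table for all 10 genes. RefSeq promoter windows are on the same build.

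The members and lists were chosen with earlier results of these data known. Setd5sh was compared with control by edgeR 4.0.16 (quasi-likelihood, TMM, two-sided, Benjamini-Hochberg over all genes with a mean FPKM of at least 1, threshold 0.05) under R 4.3.3; log2 fold changes are Setd5sh minus control. Members under that minimum were fitted with every gene that had at least 1 count. DESeq2 1.42.0, limma 3.58.1 on log2(FPKM + 1), other scalings and filters, a replicate block, GC and length trends, and each library left out were alternatives. Other named genes are, in each of 15 lists, up to 4 with the smallest p (where fewer than 4 were tested, also the 2 highest untested), and the 2 most like each tested member; Zic4, Msgn1, Lmx1a, Gdf7, Sox10, Atoh1, Ptf1a, Gsx1 and Gsx2 were added after their values were seen, and 1 gene that the rule names is not reported here. On simulated counts for 12199 genes edgeR recovered 88% of the 4-fold changes and 33% of the 2-fold ones and made 14 false calls. Counts were drawn for each gene alone, without differences that many genes of a library share, so these rates need not hold here. No 2 libraries agreed within sampling noise (the lowest chi-square per degree of freedom was 8.6). Counts limit the precision: the 7 genes under 1 FPKM had 2 to 58 reads in a library. The CCAAT, TATA and GC boxes were added to the motifs after the windows were seen. Figures used matplotlib 3.10.9.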

Additional observations from a re-analysis of the deposited data

How the results depend on the processing

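With no filter on low values 73 genes were called, against 0 with the minimum of 1 FPKM, and the number of dorsal genes called was 1, Msx1, against 0. The other 17 alternatives, 2 with looser filters and limma voom added after seeing the data, called 0 genes, with 25 to 989 at an unadjusted p under 0.05. Combined with no filter, a choice made after seeing the data, 1 dorsal gene was called with DESeq2 size factors, with the GC and length correction, with the replicate block, and without Setd5sh replicate 2, control replicate 1 or control replicate 3, and 2, Msx1 and Wnt1, with that correction and the replicate block together; 0 were called in the 7 others. Msx1 had a log2 fold change of 0.86 to 1.38 over its 18 alternatives and Wnt1 one of 0.59 to 0.97. Zic2 ranged between -0.54 and 0.01 with 1 library left out; its sign turned without control replicate 2, at 0.01, and that of Pax7 without Setd5sh replicate 2, at 0.12, or control replicate 2, at 0.11; the cause was not tested. Of 50 tested genes of the other lists that the naming rule picks, 19 turned sign with 1 library left out. Of the 10 genes, 8 to 10 had a higher Setd5sh mean in each of the 9 alternatives run for this count. The same replicate numbers occur in both groups, but they were not taken to pair the samples: deviations from the group means correlated at 0.183, 0.744 and 0.073 for numbers 1, 2 and 3 in TMM-scaled log2 counts, and at 0.191, 0.686 and 0.145 in log2(FPKM + 1), and Setd5sh replicate 3 correlated more with control replicate 1, at 0.26 and 0.176. With the replicate block above the minimum, 0 genes passed and 328 had an unadjusted p under 0.05, and Msx1, Wnt1 and Zic2 stood at 1.15 (SE 0.18), 0.81 (SE 0.24) and -0.24 (SE 0.17).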
